A study of Mus musculus with 12 samples.

Results

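The genes described here are 39 regulators and parts of the cell cycle, taken by symbol from the 55413 genes of a count table and ordered by the phase in which they act. They comprise 12 genes of DNA replication (Pcna, Mcm2 to Mcm7, Rrm1, Rrm2, Tyms, Cdc6 and Cdt1), 3 that drive entry into S phase (Ccne1, Ccne2 and E2f1), 18 of mitosis and the G2 phase before it, 3 D-type cyclins (Ccnd1, Ccnd2 and Ccnd3) and 3 inhibitors of cyclin-dependent kinases (Cdkn1a, Cdkn1b and Cdkn2a). All 39 symbols were found, and all 39 passed the filter on low counts that left 15705 genes for testing, Cdkn2a through the tumor libraries alone. The values come from bulk RNA sequencing of mouse regulatory T cells (Treg), the Foxp3-expressing CD4+ T cells that restrain immune responses. The 12 libraries fall into lymph node Treg (n = 4), tumor pTreg (n = 3) and tumor tTreg (n = 5), where pTreg are peripherally induced and tTreg thymus-derived Treg. The tumor groups came from TCRbd-/- hosts, which lack T cells of their own. Foxp3YFP-cre is an allele that makes a YFP-Cre fusion from the Foxp3 gene. These hosts received sorted tTreg of CD45.1 Foxp3YFP-cre donors together with CD8+ T cells and conventional Foxp3- CD4+ T cells, both of CD45.2 Foxp3YFP-cre donors, with 10 CD4+ and 8 CD8+ T cells for each tTreg. Cells of the mouse hepatoma line Hepa1-6 were inoculated 3 days after the transfer, and Treg were sorted from the tumors on day 18. The control group was total Treg sorted from lymph nodes of mice without a tumor, whose treatment label reads none. The genotype label of all 3 groups names both Foxp3YFP-cre and TCRbd-/- mice, and ages are not given in the labels. Nothing in the labels says that libraries of 1 group came from separate animals, so the p-values measure the spread between these libraries, which may be technical.

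A cell that divides first passes the G1 checkpoint, where D-type cyclins with CDK4 or CDK6 release E2F factors from the retinoblastoma protein. E2F factors then switch on cyclin E and the replication genes, among them the MCM helicase, the sliding clamp PCNA and the enzymes that make deoxynucleotides. A later wave of genes, whose promoters often hold CHR and CCAAT elements, is driven by B-MYB and FOXM1 and builds the mitotic machinery. Inhibitors such as p21 (Cdkn1a) and p27 (Cdkn1b) hold the kinases back. Treg in tissues and tumors are known to cycle more than Treg in resting lymphoid organs, and tumor cells and macrophages in the same tissue can cycle too.

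The libraries held 14573864 to 17323894 counts in lymph node Treg, 17964262 to 18180959 counts for tumor pTreg and 18107272 to 18510923 counts for tumor tTreg. The makeup of the libraries differed between the groups, and the group names below stand for the libraries as labelled. Summed over 16 pan-T cell genes, lymph node Treg held 6282 to 6450 CPM (counts scaled to a fixed total per library, here always the library's own total), tumor pTreg 1293 to 1317 and tumor tTreg 127.4 to 134.1. A list of 6 Treg genes gave 2812 to 2900, 383.4 to 399.5 and 140.7 to 149.6 CPM in the same order. All 6 fell in both tumor groups, Foxp3 with a log2 fold change of -4.33 in tumor pTreg and -5.56 in tumor tTreg. The defining Treg markers were thus low in the libraries of both tumor groups. A list of 10 hepatocyte or Hepa1-6 genes gave 7.437 to 9.531, 5386 to 5755 and 7956 to 8306 CPM, with Apoa2 and Fgb at 0 in lymph node Treg and Serpina1a at 0 in both tumor groups. Apoa1, Apoa2 and Ttr were near 0 in the tumor groups too and were not tested. Their means were 0.092, 0.221 and 0.055 CPM in tumor pTreg and 0.175, 0.230 and 0.175 CPM in tumor tTreg. The 12 macrophage and monocyte genes summed to 50.38 to 58.99, 10240 to 10300 and 9991 to 10580 CPM. The 8 fibroblast genes summed to 1.706 to 3.705, 132.9 to 153.0 and 672.5 to 796.0 CPM, with Col3a1, Lum and Pdgfra at 0 in lymph node Treg. Lists for endothelium (187.8 to 193.3, 37.24 to 45.21 and 20.71 to 22.96 CPM), B cells (16.86 to 19.0, 41.25 to 43.48 and 35.11 to 40.52 CPM) and CD8 T or NK cells (20.38 to 24.94, 47.9 to 52.38 and 2.08 to 2.738 CPM) held less in the tumor groups than the macrophage list. In the endothelium and B cell lists 1 gene carried the sum and went against the rest. Pecam1, which leukocytes also make, held 188.8, 30.93 and 18.38 CPM, while 4 of the 5 tested endothelium genes rose in both tumor groups (median log2 fold change of the 5 tested 3.70 and 2.12). Cd22 held 4.606, 38.7 and 34.86 CPM, while 5 of 7 B cell genes fell in both (median of the 7 -3.23 and -2.51). Tek, Emcn and Cldn5 of the endothelium list were at 0 in lymph node Treg, and Ncr1 of the CD8 T or NK list at 0 in tumor pTreg. Each comparison of cell cycle genes below sets libraries of different makeup side by side, and the part of these other cells in any result was not tested. In bulk RNA fewer cells of a type and less RNA per cell cannot be told apart.

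The promoter windows of these genes show what the replication and mitosis classes share in sequence. RefSeq windows of 300 bases on GRCm38.p6, from 250 bases before to 50 bases after a start, were available for 31 of the 39 genes, and Stmn1, Tpx2, Ccnd1, Aurkb, Ccna2, Ccnd2, Mcm4 and Ccne2 had none. Exact letters were searched on both strands: TTTCCCGC and TTTGGCGC as forms of the E2F site, TTTGAA as the core of the CHR element, and CCAAT. Other forms of the E2F site were not searched, so E2F form below means only these letters. The 4 searches were independent, so matches may overlap. A gene was counted when any of its windows held the letters, and some genes, such as Mcm7, had more than 1 window. The shares of all windows beside these counts are per window, not per gene. An E2F form lay in 6 of 11 replication genes (Cdc6, Cdt1, Mcm3, Mcm5, Mcm6 and Mcm7) and in 0 of 14 mitosis genes, beside 1.56% of all 32851 windows. The CHR core lay in 11 of 14 mitosis genes and in 1 of 11 replication genes (Mcm2), beside 17.9% of all windows. CCAAT lay in 13 of 14 mitosis genes and 8 of 11 replication genes, beside 37.4% of all windows. The CHR core and CCAAT stood together in 11 of 14 mitosis genes and 1 of 11 replication genes, beside 6.95% of all windows. A match is a description of these letters, not a binding site.

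The 6 sequences below show the difference for the letters searched. Mcm5 and Mcm6 carry a searched E2F form and no CHR core. Cdk1, Cdc20, Kif11 and Mki67 carry the CHR core and neither searched E2F form. Each sequence is the stretch of up to 200 bases before the start, 5′ to 3′ on the gene's own strand. It ends earlier where another model of the gene starts earlier. Capitals mark the letters of a motif on either strand. They span chr8:75109309-75109508 on the plus strand for Mcm5, chr1:128359706-128359905 on the minus strand for Mcm6, and chr10:69352939-69353112 on the minus strand for Cdk1. Cdc20 spans chr4:118437353-118437543 on the minus strand, Kif11 chr19:37376182-37376381 on the plus strand and Mki67 chr7:135716380-135716579 on the minus strand.
Mcm5: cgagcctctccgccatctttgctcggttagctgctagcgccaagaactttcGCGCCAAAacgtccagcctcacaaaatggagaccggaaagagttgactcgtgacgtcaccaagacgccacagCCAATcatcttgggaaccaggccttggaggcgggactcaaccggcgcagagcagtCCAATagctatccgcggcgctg
Mcm6: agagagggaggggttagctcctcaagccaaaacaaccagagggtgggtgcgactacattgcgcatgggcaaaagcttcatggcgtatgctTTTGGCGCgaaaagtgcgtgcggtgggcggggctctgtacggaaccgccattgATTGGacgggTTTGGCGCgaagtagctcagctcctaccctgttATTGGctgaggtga
Cdk1: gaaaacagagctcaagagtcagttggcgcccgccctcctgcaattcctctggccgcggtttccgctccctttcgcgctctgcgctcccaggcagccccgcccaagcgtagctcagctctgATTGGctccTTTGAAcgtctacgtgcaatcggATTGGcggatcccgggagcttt
Cdc20: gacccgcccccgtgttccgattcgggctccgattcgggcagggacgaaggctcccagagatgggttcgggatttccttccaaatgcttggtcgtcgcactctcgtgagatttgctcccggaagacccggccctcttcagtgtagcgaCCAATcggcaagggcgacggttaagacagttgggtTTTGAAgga
Kif11: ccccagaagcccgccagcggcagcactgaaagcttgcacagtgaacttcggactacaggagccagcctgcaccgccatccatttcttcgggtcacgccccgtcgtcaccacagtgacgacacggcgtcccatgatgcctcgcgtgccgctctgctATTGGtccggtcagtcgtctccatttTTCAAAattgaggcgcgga
Mki67: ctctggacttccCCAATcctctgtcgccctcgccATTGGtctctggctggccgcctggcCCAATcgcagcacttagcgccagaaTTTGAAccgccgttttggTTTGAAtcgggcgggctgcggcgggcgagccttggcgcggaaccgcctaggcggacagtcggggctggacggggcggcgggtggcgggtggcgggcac
Mcm6 holds 2 copies of the E2F form TTTGGCGC, and Mcm5 holds it once, read on the other strand. Cdk1 holds TTTCGCGC, a close variant of the E2F forms that was not searched. In Cdc20 and Kif11 the CHR core starts 18 and 19 bases before the annotated start, close behind a CCAAT match. Mki67 holds the CHR core in 2 copies, with 3 CCAAT matches further from the start.

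Against lymph node Treg most of the 39 genes were higher in the tumor libraries, mitosis genes more than replication genes. In tumor pTreg 35 genes rose and 4 fell (Mcm4, Ccnd2, Ccnd3 and Cdkn1b), where 47.6% of all tested genes rose and 39.8% fell. In tumor tTreg 33 rose, the same 4 fell and Pcna and Mcm5 were not called, where 48.1% of all tested genes rose and 42.3% fell. Without Cdkn2a, which had to differ to pass the filter, 34 and 32 of 38 rose. A gene was called at a Benjamini-Hochberg adjusted p below 0.05 in edgeR's quasi-likelihood test over all tested genes, with TMM factors for library size. Both comparisons use the same 4 lymph node libraries. The median log2 fold change was 1.24 over the 18 mitosis genes and 0.55 over the 12 replication genes in tumor pTreg, and 1.19 and 0.47 in tumor tTreg. Over all tested genes it was 0.12 and 0.10, and with library totals in place of TMM factors 0.0119 and 0.00495. Fold changes against lymph node Treg are therefore about that much higher than ratios of CPM. With counts of the 16 pan-T genes as the measure of library size, 38 members rose and 0 fell in tumor pTreg, where 91.4% of all tested genes rose. On that scale 39 rose in tumor tTreg, where 96.8% of all tested genes rose, so the 4 falls among the members hold per library and not per T cell count.

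**Figure D1:**
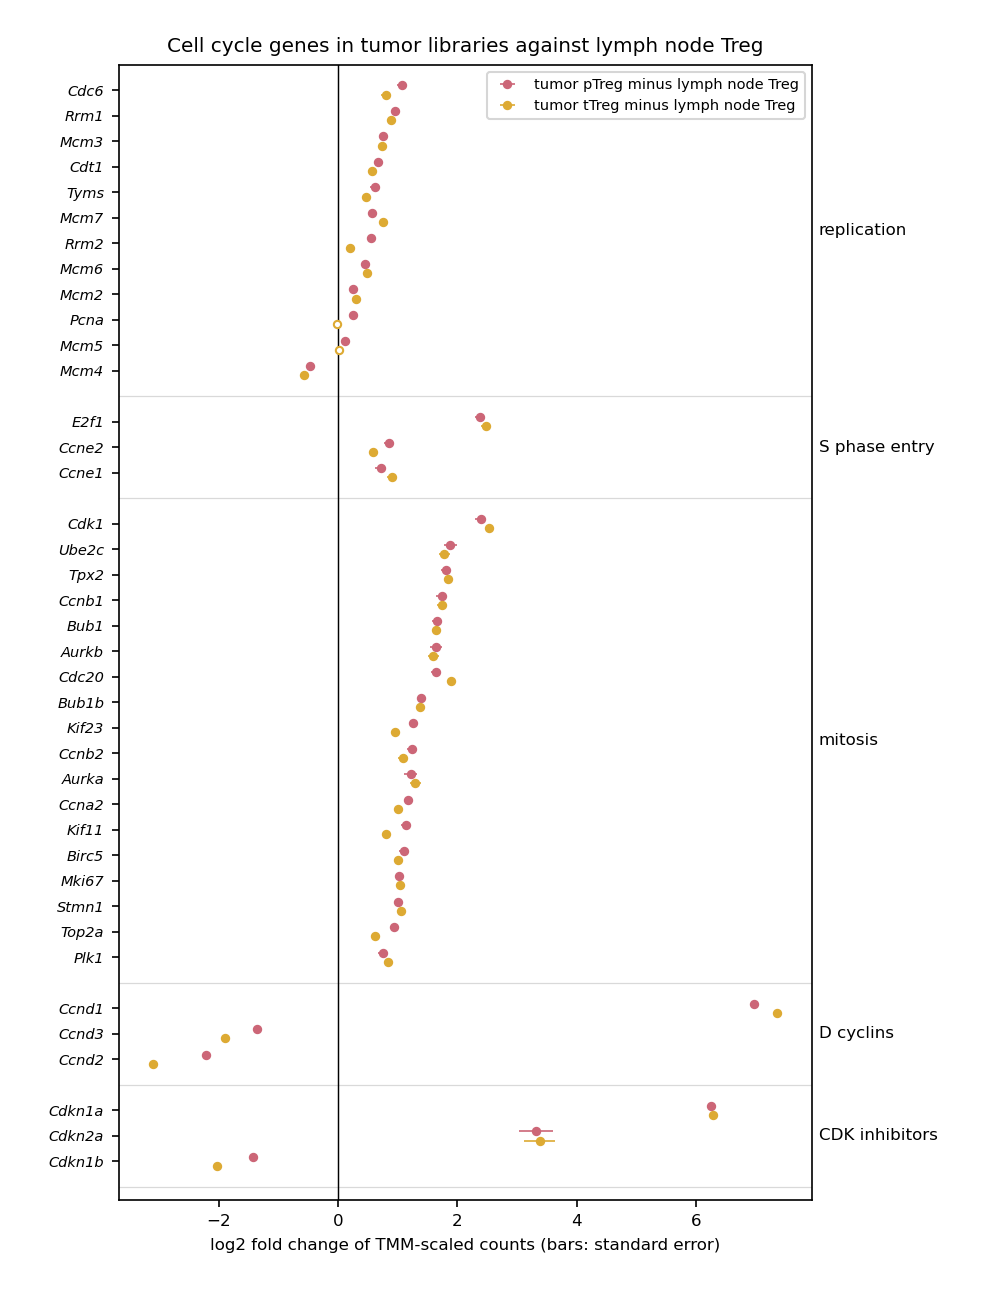
Fitted log2 fold change of each of the 39 genes (x axis, TMM-scaled counts, bars 1 standard error) in tumor pTreg (red, n = 3) and tumor tTreg (yellow, n = 5) against the same 4 lymph node Treg libraries, by class; open points were not called. All 18 mitosis genes lie to the right of 0 in both comparisons, Mcm4 lies to the left among the replication genes, and Ccnd1 and Cdkn1a lie farthest right. Scaled to pan-T counts, Mcm4, Ccnd3 and Cdkn1b move to the right of 0 in both comparisons, and Ccnd2 and Pcna do so in tumor tTreg.

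Replication genes rose modestly and not as a block. The 6 MCM proteins form a ring-shaped helicase with 1 copy of each subunit, yet their transcripts did not move together. Mcm3 was at 70.5, 69.7, 70.1 and 70.1 CPM in lymph node Treg, at 111.8, 105.9 and 109.7 CPM in tumor pTreg, and at 108.5, 109.9, 111.4, 106.4 and 111.9 CPM in tumor tTreg. All 8 tumor libraries lay above all 4 lymph node libraries, and the log2 fold change was 0.74 ± 0.0340 (SE, adjusted p = 4.54e-18) in tumor pTreg and 0.74 ± 0.0303 (adjusted p = 2.12e-19) in tumor tTreg. Mcm4 went the other way, from 128.1, 122.9, 126.2 and 124.5 CPM in lymph node Treg to 84.0, 82.9 and 84.5 CPM in tumor pTreg and 80.2, 79.0, 82.2, 74.6 and 77.1 CPM in tumor tTreg. No tumor library reached the lowest lymph node library. Mcm4, at chr16:15623897-15637400 on the minus strand of GRCm38, fell by 0.48 on the log2 scale (SE 0.0344, adjusted p = 2.26e-13) in tumor pTreg and by 0.58 (SE 0.0301, adjusted p = 8.13e-17) in tumor tTreg, and per pan-T count it was higher in both (log2 1.70 and 4.93). Mcm7 (log2 0.56 and 0.76), Mcm6 (0.46 and 0.48) and Mcm2 (0.26 and 0.30) rose in both tumor groups.

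Mcm5 had 61.4, 66.1, 66.8 and 64.4 CPM in lymph node Treg, 67.3, 64.0 and 64.1 CPM in tumor pTreg and 59.2, 62.2, 65.4, 57.0 and 59.4 CPM in tumor tTreg. The groups overlapped. Its call in tumor pTreg (log2 0.11 ± 0.0438, adjusted p = 0.0169) was lost with library totals (log2 0.0102, adjusted p = 0.83), with DESeq2 (adjusted p = 0.115) and without lymph node replicate 1 (adjusted p = 0.0909) or tumor pTreg replicate 1 (adjusted p = 0.0792), and the sign turned in the FPKM fits. In tumor tTreg its log2 fold change was 0.00467 (adjusted p = 0.911), and negative with library totals. On a scale per transcript length (FPKM, fragment counts scaled to transcript length and to depth), the 6 subunits can be compared with each other. Mcm4 was the third highest of the 6 in lymph node Treg, at 39.04 ± 1.01 FPKM (SD, n = 4) beside 52.8 ± 3.65 for Mcm6 and 43.5 ± 4.19 for Mcm7, and the lowest in both tumor groups, at 26.4 ± 0.427 (n = 3) and 24.5 ± 0.919 FPKM (n = 5). In tumor pTreg Mcm2 (27.4 ± 2.04 FPKM) and Mcm5 (28.8 ± 0.231 FPKM) stood just above it, and the lowest Mcm2 library was below the highest Mcm4 library. In tumor tTreg Mcm5 (26.0 ± 1.15 FPKM) stood just above Mcm4. Its lowest library (24.76 FPKM) was below the highest Mcm4 library (25.5 FPKM). The ratio of Mcm4 to the mean of the other 5 subunits was 1.11 ± 0.0572 for lymph node Treg, 0.597 ± 0.0132 for tumor pTreg and 0.541 ± 0.0171 for tumor tTreg. This ratio does not depend on how library size is measured, though it can depend on library makeup.

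**Figure D2:**
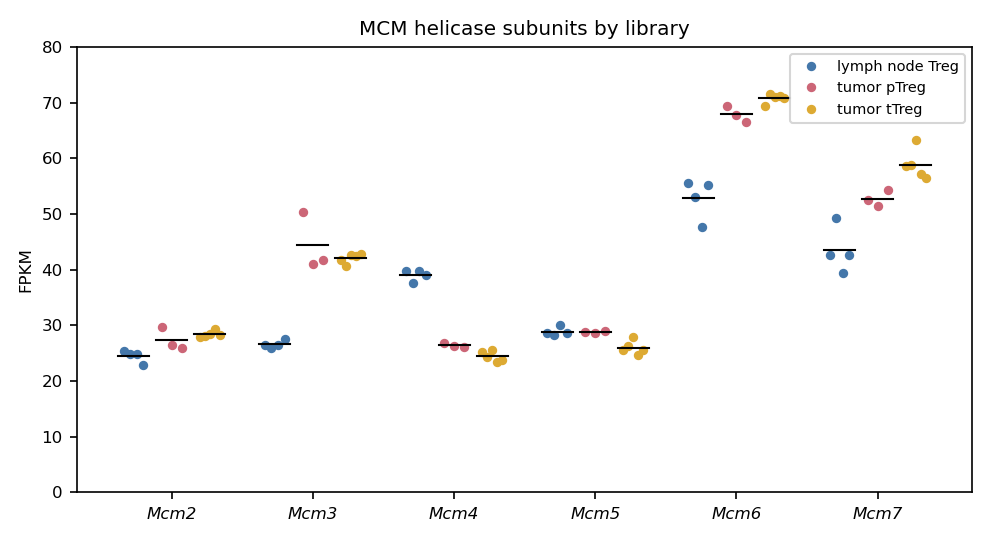
FPKM of the 6 MCM helicase subunits (y axis) in each library of lymph node Treg (blue, n = 4), tumor pTreg (red, n = 3) and tumor tTreg (yellow, n = 5), with a line at each group mean. Mcm3, Mcm6 and Mcm7 lie higher in both tumor groups, Mcm5 lies at like levels in lymph node Treg and tumor pTreg, and Mcm4 drops from a mean of 39.04 to 26.41 and 24.45 FPKM.

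Among the other replication genes, Cdc6, which loads the helicase onto origins, had the largest rise in tumor pTreg. Its CPM were 6.65, 7.14, 6.58 and 6.86 in lymph node Treg, 13.9, 13.5 and 12.3 in tumor pTreg and 10.5, 11.4, 10.3, 11.8 and 11.4 in tumor tTreg. The log2 fold changes were 1.07 ± 0.0846 (adjusted p = 2.02e-12) and 0.80 ± 0.0780 (adjusted p = 1.4e-10). Cdt1, its partner in loading, rose by 0.67 and 0.56. Rrm1, the large subunit of ribonucleotide reductase, was at 58.7 to 68.4 CPM in lymph node Treg and at 105.6 to 116.0 CPM in all 8 tumor libraries, a log2 rise of 0.95 ± 0.0411 and 0.89 ± 0.0370. Its small subunit Rrm2 rose by 0.54 ± 0.0698 in tumor pTreg and by 0.21 ± 0.0640 in tumor tTreg (adjusted p = 0.00399). The tumor tTreg libraries (22.9 to 27.2 CPM) overlapped lymph node Treg (20.2 to 25.0 CPM), and with library totals that call was lost (log2 0.109, adjusted p = 0.111), as in the FPKM fits (adjusted p from 0.167 to 0.231). Tyms, which makes thymidylate, rose by 0.61 and 0.47.

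Pcna was the replication gene with the highest level per length, at 191.6 ± 2.19 FPKM in lymph node Treg and 191.6 ± 2.86 FPKM in tumor pTreg. Its CPM were 198.4, 199.2, 200.4 and 202.1 in lymph node Treg, 223.8, 223.0 and 218.8 in tumor pTreg and 179.8, 183.1, 173.8, 193.2 and 190.0 in tumor tTreg. The 3 groups did not overlap, with tumor pTreg highest and tumor tTreg lowest. In the fit Pcna rose in tumor pTreg (log2 0.25 ± 0.0332, adjusted p = 5.66e-08) and was not called in tumor tTreg (log2 -0.02 ± 0.0296, adjusted p = 0.448). With library totals tumor tTreg was lower (log2 -0.121, adjusted p = 3.53e-04), and in the FPKM fits the rise in tumor pTreg was 0.000233 with an adjusted p of 1.

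The genes of S phase entry all rose. E2f1, the activator that switches on the replication genes, was at 5.47, 4.19, 4.45 and 4.13 CPM in lymph node Treg, at 21.6, 22.0 and 22.7 CPM in tumor pTreg and at 24.0, 23.6, 23.5, 24.7 and 22.9 CPM in tumor tTreg. The groups of tumor and lymph node libraries were far apart, with a log2 fold change of 2.38 ± 0.0823 (adjusted p = 4.94e-21) and 2.47 ± 0.0743 (adjusted p = 1.01e-22). Ccne1 and Ccne2 encode the E-type cyclins that start S phase with CDK2. Ccne1 rose by 0.71 ± 0.0941 in tumor pTreg and 0.90 ± 0.0818 in tumor tTreg. Ccne2 rose by 0.85 ± 0.0827 and 0.59 ± 0.0760. Of the 3495 exon bases of Ccne2, 609 are shared with Ints8 on the opposite strand, which had a mean of 54.25 CPM. The fold change of E2f1 was larger than that of any of the 12 replication genes in both comparisons.

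All 18 mitosis genes rose in both tumor groups, and the 18 calls held under each of the library size and filter settings, DESeq2 and the FPKM fits. Cdk1, the kinase that drives entry into mitosis, changed most. It lies at chr10:69335146-69352938 on the minus strand, its promoter is among those printed above, and its CPM were 6.00, 4.80, 5.43 and 4.36 in lymph node Treg, 27.3, 23.0 and 25.2 in tumor pTreg and 27.4, 28.1, 29.3, 29.1 and 26.0 in tumor tTreg. The lowest tumor library was well above the highest lymph node library. The fold was 5.24 in tumor pTreg (log2 2.39 ± 0.0895, adjusted p = 3.52e-20) and 5.80 in tumor tTreg (log2 2.54 ± 0.0804, adjusted p = 3.88e-22).

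The cyclin partners of CDK1 rose too, with smaller fold changes than the kinase. Ccnb1 was at 6.18, 5.90, 6.58 and 5.23 CPM in lymph node Treg, at 19.3, 17.9 and 18.4 CPM in tumor pTreg and at 17.0, 21.6, 19.3, 18.0 and 17.8 CPM in tumor tTreg. Its log2 fold change was 1.74 ± 0.0930 and 1.75 ± 0.0840. Ccnb2 rose by 1.23 and 1.09, and Ccna2, which acts in S phase and G2, by 1.17 and 1.00. Ccna2 shares 510 exon bases with Exosc9 on the opposite strand, which had a mean of 26.89 CPM.

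Genes of the anaphase-promoting complex and the spindle checkpoint rose as well. Cdc20, an activator of that complex, was at 7.18, 5.35, 6.64 and 7.15 CPM in lymph node Treg, at 20.02, 19.15 and 18.31 CPM in tumor pTreg and at 22.0, 23.7, 24.2, 21.8 and 23.4 CPM in tumor tTreg. No 2 groups overlapped, and tumor tTreg was highest. Its log2 fold change was 1.64 ± 0.0841 and 1.89 ± 0.0738. Ube2c, the ubiquitin-conjugating enzyme that works with the complex, rose by 1.88 and 1.78. The checkpoint kinase Bub1 rose by 1.65 and 1.64, and its relative Bub1b by 1.40 and 1.37.

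Kinases and motors of the spindle ranged more widely. Tpx2, which activates Aurora A on the spindle, rose by 1.80 and 1.84 on the log2 scale. Aurka itself rose less, by 1.214 and 1.296 on the same scale. Aurkb (1.65 and 1.59) and Birc5 (1.10 and 1.00) encode partners in the chromosomal passenger complex. Plk1, another mitotic kinase, had the smallest rise of the class in tumor pTreg, from 6.94 ± 0.210 to 10.9 ± 0.420 CPM (log2 0.75 ± 0.0848, adjusted p = 3.55e-09). The kinesins Kif11 (1.13 and 0.81) and Kif23 (1.25 and 0.95) push spindle poles apart and build the midzone for cytokinesis.

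The most abundant mitosis genes by count had smaller folds. Mki67, whose protein Ki-67 coats mitotic chromosomes and is the usual stain for cycling cells, was at 109.5, 105.7, 99.6 and 97.6 CPM in lymph node Treg, at 196.4, 198.1 and 191.1 CPM in tumor pTreg and at 205.1, 196.5, 190.2, 197.5 and 195.2 CPM in tumor tTreg. The tumor groups overlapped each other and lay above lymph node Treg. The fold was 2.04 in both (log2 1.03 ± 0.0351 and 1.03 ± 0.0316). Top2a, which untangles sister chromatids, rose from 70.9 ± 2.56 CPM to 126.9 ± 2.07 and 101.8 ± 2.48 CPM, by 0.94 and 0.62, the latter the smallest rise of the class in tumor tTreg. Stmn1, a microtubule-destabilising protein that is also made outside mitosis, rose by 1.00 and 1.05.

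Set side by side, the mitosis genes stood above the replication genes in both comparisons with lymph node Treg. In tumor pTreg 14 of 18 mitosis genes had a larger fold change than any replication gene, and in tumor tTreg 15 of 18. Conversely, 10 of 12 replication genes in tumor pTreg and 8 of 12 in tumor tTreg lay below every mitosis gene. The medians of the classes differed by 0.69 (log2) in tumor pTreg and 0.72 in tumor tTreg. Since any measure of library size moves both classes alike, this gap was much the same per pan-T count, with medians of 3.42 and 2.73 in tumor pTreg. The gap shrank to 0.638 and 0.571 on the log2(FPKM + 1) scale, which understates changes of low genes.

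In each library the 12 replication genes summed to 896.1, 881.3, 871.0 and 884.5 CPM in lymph node Treg, to 1078, 1057 and 1048 CPM in tumor pTreg and to 1009, 1021, 1014, 1020 and 1029 CPM in tumor tTreg. The sums in tumor were 1.20 and 1.15 times those in lymph node. The 18 mitosis genes summed to 346.6, 333.1, 332.4 and 331.7 CPM, to 722.2, 711.2 and 692.5 CPM and to 675.2, 689.8, 680.2, 672.9 and 677.4 CPM in the same order. These sums were 2.11 and 2.02 times those in lymph node. The ratio of the replication to the mitosis sum was 2.63 ± 0.035 (SD, n = 4) for lymph node Treg, 1.497 ± 0.0115 (n = 3) for tumor pTreg and 1.50 ± 0.0187 (n = 5) for tumor tTreg. Lymph node libraries ranged from 2.59 to 2.67 and tumor libraries from 1.48 to 1.52, so the tumor groups overlapped each other and neither reached lymph node Treg. As a mean of log2 CPM that gives every gene equal weight, the replication class stood above the mitosis class by 2.09 ± 0.0427 for lymph node Treg, 1.26 ± 0.0156 for tumor pTreg and 1.22 ± 0.0219 for tumor tTreg. No test was run on these sums and scores, and a class of genes is not a set of replicates.

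**Figure D3:**
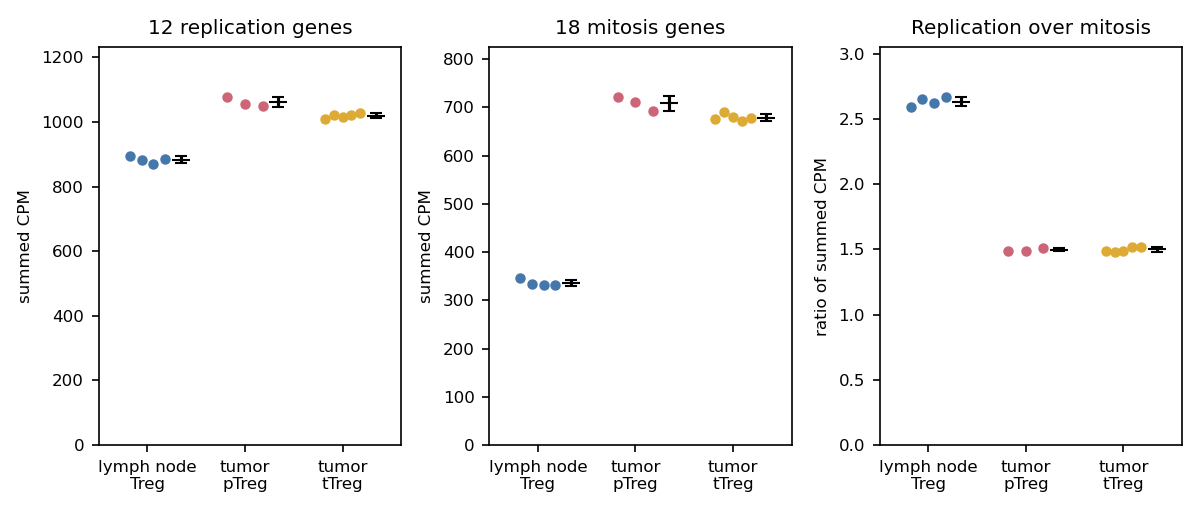
Summed CPM of the 12 replication genes (left), of the 18 mitosis genes (middle) and the ratio of the sums (right) in each library, with mean ± SD in black, for lymph node Treg (n = 4), tumor pTreg (n = 3) and tumor tTreg (n = 5). The mitosis sum is about 2.11 and 2.02 times higher in the tumor groups, the replication sum 1.20 and 1.15 times, and the ratio drops from 2.63 to 1.50 in both.

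The largest changes among the 39 genes were in D-type cyclins and CDK inhibitors. D-type cyclins carry mitogen and receptor signals to CDK4 and CDK6, and lymphocytes are known to rely on Ccnd2 and Ccnd3. Ccnd1, at chr7:144929931-144939925 on the minus strand, was near the floor in lymph node Treg, at 1.65, 1.78, 2.48 and 1.74 CPM (26 to 43 counts a library). It reached 229.0, 216.1 and 229.6 CPM in tumor pTreg and 306.1, 300.4, 287.0, 292.4 and 291.9 CPM in tumor tTreg, with no overlap between any of the groups. The fold was 125.4 in tumor pTreg (log2 6.97 ± 0.0644, adjusted p = 6.99e-35) and 163.9 in tumor tTreg (log2 7.36 ± 0.0596, adjusted p = 1.58e-36). Of its 4709 exon bases 1100 are shared with LTO1 on the opposite strand, which had a mean of 12.5 CPM. In all, 12 of the 39 genes share exon bases with another gene. The sources used here do not give whether counting used strand.

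Ccnd2 fell from 404.2, 418.5, 390.7 and 429.7 CPM in lymph node Treg to 76.0, 82.8 and 86.0 CPM in tumor pTreg and 46.1, 45.0, 46.2, 41.0 and 43.1 CPM in tumor tTreg. Every library of tumor tTreg was below every library of tumor pTreg. The fold was 4.68 lower in tumor pTreg (log2 -2.23 ± 0.0414, adjusted p = 1.01e-27) and 8.67 lower in tumor tTreg (log2 -3.12 ± 0.0373, adjusted p = 1.24e-32); per pan-T count the direction was lost in tumor pTreg (log2 -0.0483, adjusted p = 0.341) and turned in tumor tTreg (2.39). Ccnd3 fell likewise, from 191.4, 200.8, 198.0 and 199.2 CPM to 73.2, 74.2 and 66.6 CPM and to 50.02, 46.44, 48.03, 51.37 and 50.42 CPM. Its log2 fold changes were -1.36 ± 0.0380 and -1.91 ± 0.0338, and per pan-T count 0.816 and 3.602. The pan-T genes fell in the same libraries, all 16 of 16 in both comparisons, with a median log2 fold change of -2.31 in tumor pTreg and -5.59 in tumor tTreg.

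On the per-length scale the 3 D-type cyclins added up to 234.9 ± 13.0 FPKM in lymph node Treg, 133.5 ± 2.29 FPKM in tumor pTreg and 133.0 ± 5.64 FPKM in tumor tTreg. Ccnd1 made up 0.285 ± 0.0913% of this sum for lymph node Treg, 49.6 ± 1.46% for tumor pTreg and 66.2 ± 1.77% for tumor tTreg. The shares of Ccnd3 were 69.9 ± 0.971%, 39.6 ± 0.945% and 27.4 ± 1.93%. Ccnd2 held 29.8 ± 0.866%, 10.8 ± 0.889% and 6.40 ± 0.715%. These shares do not depend on library size, though they can depend on library makeup. None of the 3 sets of Ccnd1 shares overlapped another.

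The CDK inhibitors likewise moved in opposite directions per library. Cdkn1a encodes p21, a target of p53, and lies at chr17:29090976-29100727 on the plus strand. It was at 5.06, 4.80, 5.89 and 5.58 CPM in lymph node Treg, at 385.9, 376.0 and 378.5 CPM in tumor pTreg and at 389.4, 387.8, 407.2, 390.5 and 384.8 CPM in tumor tTreg. Tumor pTreg and tumor tTreg overlapped. The fold was 76.2 (log2 6.25 ± 0.0487, adjusted p = 1.62e-36) and 78.2 (log2 6.29 ± 0.0465, adjusted p = 2.36e-37). Per length it was the highest of the 39 genes in both tumor groups, at 249.6 ± 2.13 and 261.6 ± 7.30 FPKM, against 3.498 ± 0.392 FPKM in lymph node Treg, where it ranked behind 28 of them.

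Cdkn1b, which encodes p27, the inhibitor associated with resting T cells, fell from 351.6, 337.2, 345.7 and 350.5 CPM in lymph node Treg to 117.2, 117.6 and 123.9 CPM in tumor pTreg and 83.7, 82.4, 73.2, 77.0 and 80.5 CPM in tumor tTreg. The 3 groups were separate. The log2 fold change was -1.43 ± 0.0359 (adjusted p = 1.68e-24) and -2.03 ± 0.0317 (adjusted p = 8.21e-30), and per pan-T count 0.749 and 3.48. Cdkn1a made up 2.54 ± 0.228% of the FPKM of both genes for lymph node Treg, 83.1 ± 0.321% for tumor pTreg and 88.4 ± 0.838% for tumor tTreg. Cdkn2a, whose locus encodes p16 and p19Arf, had 3 to 7 counts a library in lymph node Treg (0.173 to 0.412 CPM) and 2.16 to 3.34 CPM in the tumor libraries. No lymph node library reached the 10 counts of the filter, so Cdkn2a was tested only because the tumor libraries were high, and its fitted log2 values of 3.32 ± 0.284 and 3.38 ± 0.259 are a description. It was the most variable of the 39 genes, with a coefficient of variation of 40.0% in lymph node Treg beside a median of 5.33% over the 39. Hepatocyte and macrophage markers rose in the same libraries as Ccnd1 and Cdkn1a (6 of 6 tested and 12 of 12), and their part in these changes was not tested.

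**Figure D4:**
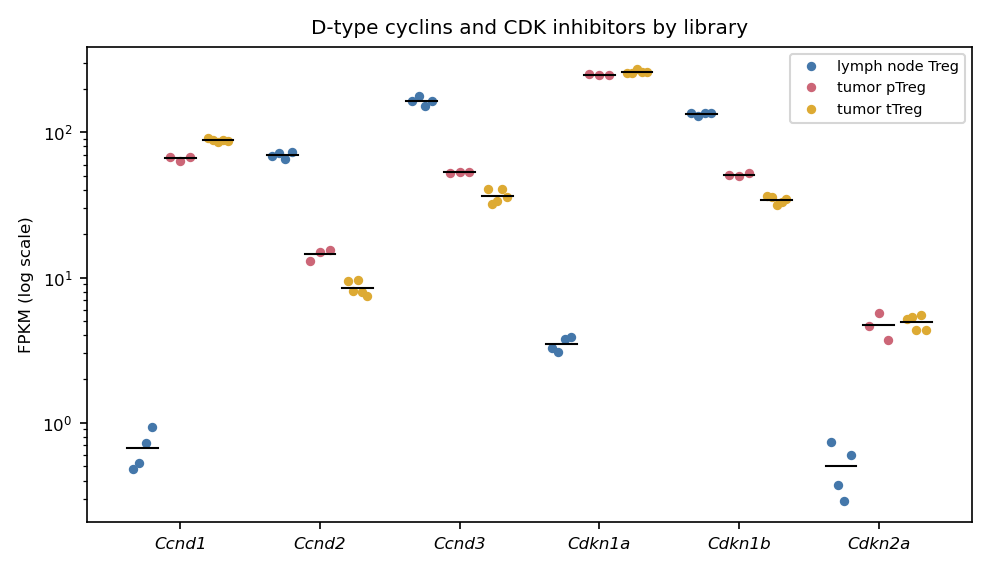
FPKM on a log scale (y axis) of the 3 D-type cyclins and 3 CDK inhibitors in each library of lymph node Treg (blue, n = 4), tumor pTreg (red, n = 3) and tumor tTreg (yellow, n = 5), with a line at each group mean. Ccnd1 and Cdkn1a rise from means of 0.665 and 3.498 FPKM to 66.15 and 249.6 FPKM in tumor pTreg and 88.02 and 261.6 FPKM in tumor tTreg, while Ccnd2, Ccnd3 and Cdkn1b fall per library, though not per pan-T count.

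The tumor groups differed little from each other in replication and mitosis genes. Between tumor pTreg and tumor tTreg 13 of 39 genes were higher and 3 lower (Mcm7, Cdc20 and Ccnd1), which is 33.3% and 7.69% of them, where 26.8% of all tested genes were higher and 25.3% lower. The share higher was near that of all genes and the share lower was below it. The split rests on the scale. With pan-T counts as library size 0 were higher and all 39 lower, where 97.0% of all tested genes were lower and the median over all genes was -3.34. With hepatocyte marker counts as library size 39 were higher and 0 lower, where 82.6% of tested genes were higher and the median over all genes was 0.53. The 16 pan-T genes were all higher in tumor pTreg (median log2 fold change 3.49), 6 of 6 tested hepatocyte genes were lower (median -0.60) and 7 of 8 fibroblast genes were lower (median -2.91). The median fold change was 0.10 over the replication genes and 0.0172 over the mitosis genes, and no mitosis gene lay above the highest replication gene.

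Among the replication genes Rrm2 was higher in tumor pTreg, at 28.4, 34.4 and 30.8 CPM against 24.7, 27.2, 24.3, 22.9 and 24.8 CPM in tumor tTreg (log2 0.34 ± 0.0648, adjusted p = 6.83e-05). Pcna (0.28 ± 0.0316, adjusted p = 1.99e-08) and Cdc6 (0.26 ± 0.0727, adjusted p = 0.00314) were higher as well, the latter not in DESeq2 (adjusted p = 0.0676) or on log2(FPKM + 0.1) (adjusted p = 0.0554). Mcm7 was the only lower gene of this class, at 96.1, 96.2 and 101.1 CPM against 113.1, 109.3, 115.3, 113.3 and 111.3 CPM (log2 -0.19 ± 0.0320, adjusted p = 8.86e-06), a call lost in the FPKM fits (adjusted p from 0.0572 to 0.109). Mcm7 shares 321 exon bases with Ap4m1 on the opposite strand. The small differences of Mcm4 (0.10) and Mcm5 (0.11) lost their calls with RLE factors (adjusted p = 0.18 and 0.196) and without tumor pTreg replicate 3 for Mcm4 (adjusted p = 0.0648). For Mcm5 the call was also lost without tumor pTreg replicate 1 (adjusted p = 0.155) or tumor tTreg replicate 1, 4 or 5 (adjusted p = 0.0583, 0.0802 and 0.0554).

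Of the S phase entry genes Ccne2 was higher in tumor pTreg, at 12.7, 12.3 and 12.3 CPM against 11.1, 9.671, 9.724, 10.52 and 10.99 CPM (log2 0.26 ± 0.0730, adjusted p = 0.00347), but not in DESeq2 (adjusted p = 0.0745) or the FPKM fits (adjusted p from 0.0873 to 0.177). Ccne1 went the other way without a call (log2 -0.19 ± 0.0803, adjusted p = 0.0516). Among the mitosis genes Top2a was higher, at 129.0, 126.8 and 124.8 CPM against 100.9, 105.7, 102.3, 98.9 and 101.3 CPM (log2 0.32 ± 0.0318, adjusted p = 1.05e-09). The kinesins Kif11 (0.32 ± 0.0601, adjusted p = 5.13e-05) and Kif23 (0.30 ± 0.0514, adjusted p = 1.25e-05) were higher too, Kif23 without a call in the FPKM fits (adjusted p from 0.161 to 0.279). Ccna2 (0.17 ± 0.0462, adjusted p = 0.00238) was higher but lost its call in DESeq2 (adjusted p = 0.0794) and the FPKM fits (adjusted p from 0.0506 to 0.0925). Cdc20 was lower (log2 -0.26 ± 0.0641, adjusted p = 0.00142), but not on log2(FPKM + 0.1) (adjusted p = 0.0686). Cdk1 (log2 -0.15 ± 0.0630) just missed the threshold with an adjusted p of 0.0516 and passed it under several other settings, among them RLE factors (0.011), DESeq2 (0.0473) and without lymph node replicate 1 or 4, tumor pTreg replicate 1, or tumor tTreg replicate 1 or 5 (0.0165 to 0.0468). Mki67 did not differ beyond its error (log2 -0.00530 ± 0.0318, adjusted p = 0.907).

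The D-type cyclins and p27 differed most. Ccnd2 was 1.85 times higher in tumor pTreg (log2 0.89 ± 0.0456, adjusted p = 7.21e-16), Cdkn1b 1.51 times (log2 0.60 ± 0.0369, adjusted p = 4.98e-14) and Ccnd3 1.46 times (log2 0.54 ± 0.0405, adjusted p = 4.08e-12). Ccnd1 was 1.31 times lower (log2 -0.39 ± 0.0309, adjusted p = 1.66e-11), without a call on log2(FPKM + 0.1) (adjusted p = 0.0729). Cdkn1a was not called (log2 -0.04 ± 0.0280, adjusted p = 0.285), but was with RLE factors (log2 -0.0812, adjusted p = 0.0169). Per pan-T count Ccnd2, Ccnd3 and Cdkn1b were lower in tumor pTreg (log2 -2.44, -2.79 and -2.73).

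**Figure D5:**
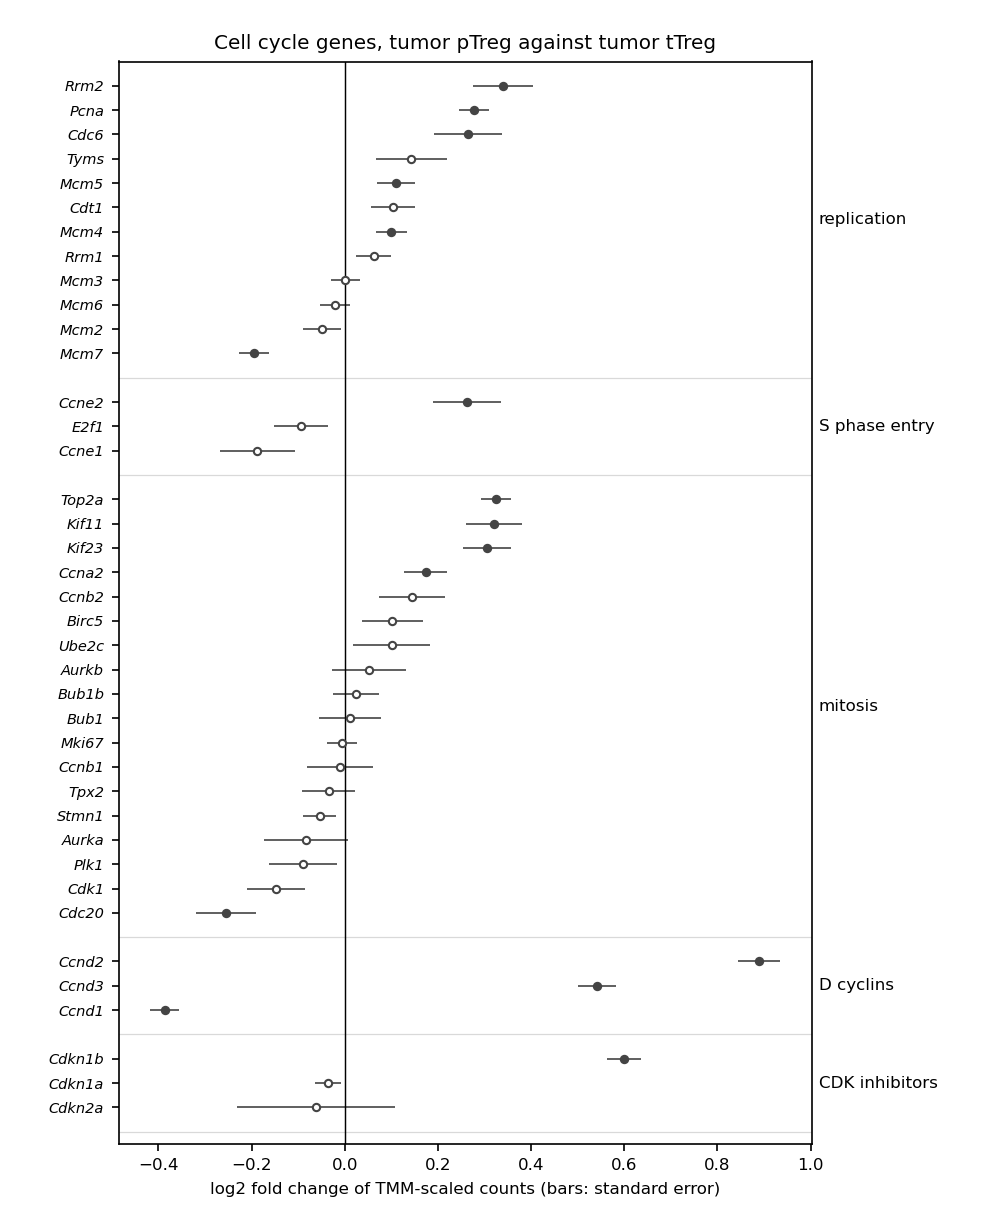
Fitted log2 fold change of the 39 genes in tumor pTreg (n = 3) against tumor tTreg (n = 5) (x axis, TMM-scaled counts, bars 1 standard error), by class; filled points were called. The replication and mitosis genes lie between -0.255 and 0.339, while Ccnd2, Ccnd3 and Cdkn1b lie to the right and Ccnd1 to the left; scaled to pan-T counts all 39 lie to the left, and to hepatocyte markers all 39 to the right.

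For scale, the counts of each gene can be set against those of the 16 pan-T genes in the same library. Per 100 pan-T counts there were 0.0809 ± 0.0111 counts of Cdk1 for lymph node Treg, 1.93 ± 0.182 for tumor pTreg and 21.4 ± 1.13 for tumor tTreg. For Mki67 the values were 1.62 ± 0.0894, 14.95 ± 0.288 and 150.7 ± 6.41, and for Pcna 3.15 ± 0.0498, 17.0 ± 0.283 and 140.7 ± 4.66. In tumor tTreg the counts of Mki67 thus exceeded those of all 16 pan-T genes together. Cdkn1b (5.45 ± 0.147, 9.16 ± 0.287 and 60.8 ± 4.25) and Ccnd2 (6.46 ± 0.327, 6.25 ± 0.357 and 33.9 ± 2.35) rose least on this scale between lymph node and tumor tTreg. The cells in which these transcripts were made cannot be told from bulk counts.

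The rest of the pathway was read from 3 further lists. Of 45 other replication genes 32 rose and 5 fell in tumor pTreg against lymph node Treg, with a median log2 fold change of 0.56. Of 54 other mitosis genes 46 rose and 7 fell, with a median of 1.03. Of 26 other genes of G1 control 14 rose and 12 fell, with a median of 0.18. As shares these are 71.1% and 11.1%, 85.2% and 13.0%, and 53.8% and 46.2%, beside 47.6% and 39.8% of all tested genes, so the G1 control list lay near the share of all genes. In tumor tTreg the counts were 33 and 7 (median 0.60), 44 and 7 (1.10) and 13 and 12 (0.16), beside 48.1% and 42.3% of all tested genes. The mitosis list thus again had the higher median. Between the tumor groups 10 replication genes were higher and 7 lower, 13 mitosis genes higher and 11 lower, and 9 G1 control genes higher and 7 lower. These shares (22.2% and 15.6%, 24.1% and 20.4%, 34.6% and 26.9%) lay around the 26.8% and 25.3% of all tested genes, below them for replication and mitosis and above them for G1 control, and say nothing particular about the lists.

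Named genes of these lists showed both directions. Orc1, the largest subunit of the origin recognition complex, rose from 1.49 ± 0.367 CPM to 8.19 ± 0.204 CPM in tumor pTreg and 6.80 ± 0.623 CPM in tumor tTreg. Exo1, a repair exonuclease, rose by 1.68 in tumor pTreg, and the clamp loader subunit Rfc3 by 1.90 in tumor tTreg. Gins3 (-1.005 and -1.25) and Pole2 (-0.87 and -1.03), parts of the replicative helicase and of polymerase epsilon, fell, as Mcm4 did. Psrc1, a spindle protein and target of p53, rose from 2.97 ± 0.520 CPM to 98.2 ± 3.98 and 134.1 ± 2.72 CPM. Anln, an actin-binding protein of cytokinesis, rose by 2.64 and 2.81. Smc4, a condensin subunit, fell from 1178 ± 32.8 CPM to 144.7 ± 5.28 and 106.6 ± 2.97 CPM, and the phosphatase Cdc25b by 0.91 and 1.91.

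In the G1 control list Cdkn2b, the p15 inhibitor beside Cdkn2a, went from 0.192 ± 0.0952 CPM to 9.54 ± 0.614 and 12.8 ± 0.649 CPM, and like Cdkn2a it passed the filter through the tumor libraries alone. Skp2, which marks p27 for degradation, rose by 1.79 and 2.07. E2f2 (-1.59 and -2.24) and Cdkn2d (-1.51 and -2.66) fell. Between the tumor groups Rpa2 (0.77), Slbp (0.60), Cdc25b (1.00), Kif18a (0.47), Cdkn2d (1.146) and Rbl2 (0.93) were higher in tumor pTreg. Gins1 (-0.38), Rfc3 (-0.33), Psrc1 (-0.44), Cks1b (-0.31), Cdk4 (-0.45) and Cdkn2b (-0.42) were lower. All these falls and differences are per library, and for these named genes no values per pan-T count are given. The pan-T and hepatocyte marker sums differed between the same libraries. Smc4 fell by more than the median pan-T gene in tumor pTreg (log2 -2.92 against -2.31). In tumor tTreg it fell by less (-3.37 against -5.59).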

How the data were processed

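Bulk RNA was measured in 12 libraries. The authors deposited RSEM expected counts, which were whole numbers and used as such, and FPKM, a level per transcript length. Per the submitters' processing notes STAR 2.7.11a, RSEM 1.3.3 and DESeq2 were used with GRCm38/mm10; the sources used here name no annotation. Depth is given in the report. The test was edgeR 4.0.16 (quasi-likelihood F test, TMM, filterByExpr by group, all libraries, group as the only factor; R 4.3.3), and adjusted p-values are Benjamini-Hochberg over 15705 genes in each comparison. Errors of log2 fold changes are standard errors, other errors SD. Levels in CPM use library totals. Alternatives were DESeq2 1.42.0, limma 3.58.1 on log2(FPKM + 1) and log2(FPKM + 0.1), other scalings and filters, and leaving out each library. The fit was also run on simulated counts in which far fewer genes changed than were called here, so that run does not test these comparisons. Gene positions are from GENCODE vM21. Members and lists were chosen with earlier results of these data known. All 39 members are named; from each other list the text names the 2 called genes with the largest change in each direction, reaching 5 CPM in either group, with groups that do not overlap.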

Additional observations from a re-analysis of the deposited data

Results flagged for a closer look

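In 5 of the 78 sets of library values checked (39 genes in the lymph node Treg and tumor tTreg groups), 1 library stood apart from the others by Dixon's criterion, where chance gives about 1 in 20, or 3.9. Mcm2 was at 70.07 CPM in lymph node Treg replicate 4, below the 76.66 to 76.96 CPM of the others. Bub1 was at 4.803 CPM in lymph node Treg replicate 2, below 5.472 to 5.599 CPM. Ccnd1 was at 2.482 CPM in lymph node Treg replicate 3, above 1.647 to 1.784 CPM. Ccne1 was at 14.25 CPM in tumor tTreg replicate 5, above 12.35 to 12.64 CPM. Cdkn1a was at 407.2 CPM in tumor tTreg replicate 3, above 384.8 to 390.5 CPM. Each of these genes kept its call against lymph node Treg without the library concerned.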

How the results depend on the processing

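Depth did not limit most members, but Cdkn2a and Ccnd1 rest on few counts in lymph node Treg. The cause of the changes below was not tested. Against lymph node Treg the count of members that rose was 34 to 35 in tumor pTreg and 33 in tumor tTreg with a library left out, and 4 fell in each case. Between tumor pTreg and tumor tTreg 12 to 13 were higher and 3 to 5 lower with a library left out, with 5 lower without tumor pTreg replicate 1 or tumor tTreg replicate 1. In that comparison DESeq2 gave 8 higher and 5 lower and RLE factors 8 lower. Library totals, a filter at a mean of 5 CPM and a fit of the compared groups only gave 5 lower each, and log2(FPKM + 0.1) gave 0 lower. Pan-T scaling gave 0 higher and 39 lower there, and 0 lower in both comparisons with lymph node Treg; hepatocyte marker scaling gave 39 higher and 0 lower. Of the called genes in all tested, 51.4% were higher in tumor pTreg than in tumor tTreg, 0.581% with pan-T scaling and 98.2% with hepatocyte scaling. The median over all genes was 2.29 and 5.6 (log2) with pan-T scaling against lymph node Treg.

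Reversed values (log2 fold change) between the tumor groups with pan-T scaling were Pcna -3.05, Mcm4 -3.228, Mcm5 -3.218, Rrm2 -2.989, Cdc6 -3.062, Ccne2 -3.065, Top2a -3.003, Ccna2 -3.154, Kif11 -3.006, Kif23 -3.023, Ccnd2 -2.439, Ccnd3 -2.786 and Cdkn1b -2.73. With hepatocyte marker scaling they were Mcm7 0.3513, Mki67 0.5402, Cdk1 0.3968, Cdc20 0.2904, Ccnd1 0.158 and Cdkn1a 0.509. Against lymph node Treg pan-T scaling turned Mcm4 (1.702), Ccnd3 (0.8155) and Cdkn1b (0.7494) in tumor pTreg, and Pcna (5.483), Mcm4 (4.93), Ccnd2 (2.391), Ccnd3 (3.602) and Cdkn1b (3.479) in tumor tTreg. Mcm5 turned in tumor pTreg in the FPKM fits (-0.001487 and -0.001454), and in tumor tTreg with library totals (-0.09232) and in the FPKM fits (-0.1507 and -0.1459).

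The gap between the mitosis and replication medians against lymph node Treg was 0.6376 in tumor pTreg and 0.5708 in tumor tTreg on log2(FPKM + 1), with or without a filter at a mean of 1 FPKM, and 0.667 in tumor tTreg on log2(FPKM + 0.1). With a library left out it was 0.668 to 0.765 and 0.684 to 0.756. The per-library lead of the replication class was 2.19, 1.288 and 1.242 (lymph node Treg, tumor pTreg, tumor tTreg) with a pseudocount of 0.1, 1.816, 1.042 and 0.9774 on log2(FPKM + 1), and 2.204, 1.355 and 1.338 without Pcna, Mki67 and Stmn1. Libraries of the same replicate number did not deviate together, with correlations from -0.053 to 0.0582 beside -0.1218 to 0.179 for different numbers. Where the spread between libraries is technical, pairs would not deviate together either, so this does not settle whether the numbers pair the libraries. With a replicate block 12 members were higher and 4 lower between the tumor groups, and 35 and 4, and 33 and 4, changed against lymph node Treg.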
